A study of Mus musculus with 4 samples.

Results

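Gene expression was compared between CD25lo Foxp3+ and CD25+ Foxp3- cells, a pair of sorted mouse CD4+ T cell populations that carry CD25 with and without Foxp3. The members are the 2 arrays with those titles, of 4 arrays in the series. All 4 populations came from Foxp3-GFP knock-in mice, in which green fluorescent protein reports Foxp3, so both sides carry the reporter allele. The mice were male B6/129 F2 animals of 5 to 8 weeks of age, and spleen and lymph node cells of 25 of them were combined. Cells bearing CD8, B220, CD11b, NK1.1 or DX5 were depleted first, and the rest were sorted on CD4, GFP and CD25. The other populations, CD25hi Foxp3+ and CD25- Foxp3- cells, are given beside the pair to show where each gene lies. Each population was read once, on an Affymetrix whole-genome array, so all differences are sizes without a test and the number of arrays limits the precision.

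Foxp3 is the transcription factor that specifies regulatory T (Treg) cells, which restrain other T cells. CD25, encoded by Il2ra, is one chain of the receptor for IL-2, and Treg cells carry it at rest. Conventional CD4+ T cells put it on the surface after activation, and some innate-like T cells carry it too. A CD25+ cell without Foxp3 can therefore be a recently activated helper cell or one of several less common types, whereas a Treg cell with little CD25 is often of the effector or memory kind.

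The sort genes came first. Foxp3 had an intensity of 1117 with the CD25lo Foxp3+ label and 16.8 with the CD25+ Foxp3- label, 66.7-fold apart, by its only probe set. The CD25hi Foxp3+ array gave 1308 and the CD25- Foxp3- array 17.6, so it followed the labels in all 4. Il2ra read 288 against 283 by one probe set, a ratio of 1.02, and 84.2 against 114 by the other, a ratio of 0.739. On neither probe set was the pair 2-fold apart, although the sort labels differ (lo and +). Both genes were used in the sort, so their values are a description, and neither is counted in any list below. All 9 measured markers of CD4 T cells were above background in all 4 arrays, with Cd4 at 2740 against 2434. As a list these markers were lower with the CD25+ Foxp3- label. Their median log2 difference was 0.69, with a range from -0.51 to 1.48. Their summed intensity was 42450 against 28314 (38610 for CD25hi Foxp3+, 41337 for CD25- Foxp3-). Only 1 of them, Cd2, was past 2-fold, with 10028 against 3604. The 4 arrays were on one scale, with median intensities between 15.03 and 15.6.

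Across 9622 measured genes the difference was uneven in direction. At 2-fold or more, 497 genes (5.17%) were higher and 870 (9.04%) lower in CD25lo Foxp3+ cells. At 4-fold or more the counts were 79 (0.821%) and 189 (1.96%). The median log2 difference was -0.01, so the arrays shared a centre and the imbalance lay in the tails. The imbalance was small among the 3265 genes reading at least 500 in both arrays, with 130 (3.98%) higher and 140 (4.29%) lower. The dimmer array was at the floor for 10 of the higher genes and 48 of the lower ones. The 1st percentile of the log2 difference was -2.50 and the 99th was 1.86. As an internal measure of error, probe sets of the same gene differed in their log2 difference with an SD of 0.33 (4425 genes with at least 2 probe sets). That SD covers probe error on these arrays and not the spread between sorts or mice. Of 198 higher genes with another probe set, 190 had every one in the same direction and 116 had one at 2-fold or more. Of 318 lower genes, 299 had every other probe set in the same direction, 221 had one at 2-fold or more, and 1 had one that was 2-fold apart the other way.

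**Figure D1:**
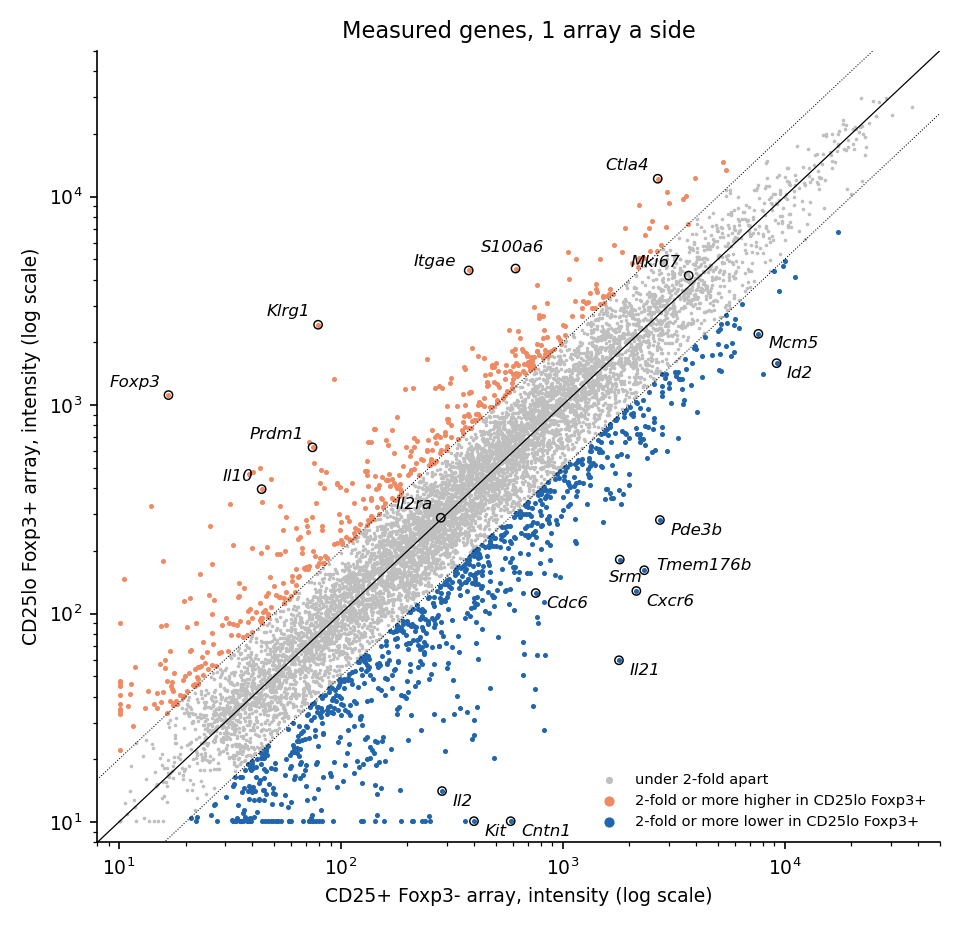
Intensity of each of the 9622 measured genes in the CD25+ Foxp3- array (x axis, log scale) and the CD25lo Foxp3+ array (y axis, log scale), with dotted lines at 2-fold; values under the floor of 10.1 are drawn at it. Foxp3 stands farthest above the diagonal with 1117 against 16.8, Il2ra lies on it with 288 against 283, and Il21, Cxcr6, Kit and Cntn1 lie far below it.

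Apart from Foxp3, the widest difference upward among genes read above the floor in both arrays was in Klrg1. Klrg1, an inhibitory receptor of effector lymphocytes that binds cadherins, read 2429 in CD25lo Foxp3+ and 79.1 in CD25+ Foxp3- cells, 30.7-fold apart. Itgae, the CD103 integrin chain that holds T cells to E-cadherin on epithelium, read 4421 against 377, 11.7-fold apart, and its other probe set had a log2 difference of 3.66. Matk, a kinase that restrains Src family kinases, read 1340 against 93.7. The CD25- Foxp3- array read 68.4 for Klrg1, 296 for Itgae and 141 for Matk, so both Foxp3+ arrays were on the high side of all 3 genes, and for Klrg1 and Matk CD25lo exceeded CD25hi cells, which read 1085 and 608. Nebulin (Neb), a muscle filament protein, was 23.7-fold higher and Ncmap 13.9-fold, but their CD25+ Foxp3- readings of 13.9 and 10.6 lie close to the floor (10.1), which leaves those folds and their order uncertain. Nxpe4, Fcmr (the Fc receptor for IgM), Rapgef5, Kctd12b, Atp6v0d2 (a proton pump subunit) and F13a1 (a clotting factor chain) were between 10.2-fold and 12.1-fold higher. For Kctd12b the other probe set gave a log2 difference of 1.48 against 3.50. Prg4 (lubricin) read 664 against 72.03 and Sccpdh 443 against 48.4. Of genes at the floor in CD25+ Foxp3- cells, Cd80, a ligand of CD28 and CTLA-4, was the brightest, at 89.7, and was at least 8.87-fold higher. Its other probe set read 41.8 against 11.4, a log2 difference of 1.87. Pak3, Slc7a10, Ica1 and Tppp read between 36.7 and 47.6 and were at least 3.63-fold to 4.71-fold higher.

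The widest difference downward among genes read above the floor in both arrays was in Il21. Il21, a cytokine with which helper T cells drive B cells, read 59.8 in CD25lo Foxp3+ and 1794 in CD25+ Foxp3- cells, 30.0-fold apart, with 122 in CD25- Foxp3- and 15.3 in CD25hi Foxp3+ cells. Cxcr6, a chemokine receptor of tissue-homing and innate-like T cells, read 128 against 2148 and was 16.7-fold lower, and its other probe set had a log2 difference of -4.0. The remaining arrays read 73.5 (CD25hi Foxp3+) and 248.5 (CD25- Foxp3-) for Cxcr6. The T cell receptor gamma segments Trgv1 and Trgv4 read 27.6 against 825 and 20.2 against 491. Their probe sets can read related gamma segments, so which segment was transcribed is uncertain. Tmem176a and Tmem176b, neighbouring membrane protein genes, read 35.95 against 733 and 162 against 2332. CD25+ Foxp3- cells had the highest reading of the 4 arrays for each of these 6 genes.

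Lower in the same way were Dll1 (a Notch ligand, 23.2-fold), Hebp1 (15.5-fold), Lmo4 (a transcriptional cofactor, 15.1-fold) and Fcer1g (the Fc receptor gamma chain, 13.5-fold). St6galnac2, a sialyltransferase, read 63.2 against 836, and unlike the preceding genes it was also high in CD25- Foxp3- cells, at 598. Genes at the floor in CD25lo Foxp3+ cells were led by the neural adhesion gene Cntn1, at least 57.7-fold lower, and the stem cell factor receptor Kit, at least 39.4-fold lower. Kcnk1, Pxdc1 and Mapk10 were at least 36.0-fold, 25.0-fold and 23.8-fold lower. Other probe sets gave smaller log2 differences for Cntn1 (-4.0), Kcnk1 (-1.80) and Mapk10 (-2.44).

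Genes known from Treg cells were mostly higher in CD25lo Foxp3+ cells. Of 33 measured members of the Treg list, 23 were at least 2-fold higher, 1 was lower and 9 were under 2-fold, with a median log2 difference of 1.49 against -0.01 over all genes. The list is partly known from profiles such as these and is not independent evidence of its direction. CTLA-4, which strips CD80 and CD86 from antigen-presenting cells, had its gene Ctla4 at 12173 against 2682. Nrp1 (neuropilin-1, a semaphorin receptor common on thymic Treg cells) read 5447 against 1053, and Itgb8, an integrin chain that frees TGF-beta, read 528 against 75.7. The other Nrp1 probe sets had smaller log2 differences of 1.21, 1.89 and 1.99, against 2.37. Ikzf2 (Helios) and its relative Ikzf4 (Eos), which act beside Foxp3, read 7034 against 1917 and 543 against 234. Even so, CD25+ Foxp3- cells read higher than CD25- Foxp3- cells for Ikzf2 (1917 and 424), Nrp1 (1053 and 281) and Ctla4 (2682 and 852). The list's median above CD25- Foxp3- cells was 3.67 in CD25lo Foxp3+ and 2.12 in CD25+ Foxp3- cells, on the log2 scale.

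The Treg genes that did not separate the pair are also named here, after their values were seen. Penk (proenkephalin) read 93.2 against 263 and was the 1 lower gene, 2.83-fold. The IL-2-induced inhibitor Socs2 read 197 against 382, the inhibitory receptor gene Lag3 read 113 against 157, and Ebi3, a chain of IL-35 and IL-27, read 239 against 250.5. Plagl1, Ecm1, Il1r2, Gpr15, Rgs16 and Icos were higher by less than 2-fold. Icos, a costimulatory receptor, read 10804 against 5473.

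Suppressive mediators overlapped that list in part, and 7 of 12 measured genes were higher and none lower, with a median of 1.59 (0.97 over all 14 on the array). Il10, an anti-inflammatory cytokine, read 395 against 44.1. The pair of enzymes that turns extracellular ATP into adenosine was higher at both steps, Entpd1 (CD39) with 327 against 53.1 and Nt5e (CD73) with 3086 against 847. Fgl2, a secreted suppressor, read 878 against 179, Gzmb (granzyme B) 422 against 96.4, and Lgals1 (galectin-1) 13473 against 5431. Tgfb1, which encodes a suppressive cytokine that most T cells make, read 172 against 250 and did not reach 2-fold.

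Genes of memory and tissue effector T cells were higher as well. In that list 10 of 19 measured genes were higher and 1 lower, with a median of 1.15, and all 19 were above background in all 4 arrays. The calcium-binding genes S100a6 and S100a4 read 4516 against 614 and 9154 against 2205, and Anxa2, which binds S100a10, read 2715 against 784. Ahnak, a large scaffold protein, read 3800 against 1420, with 1611 in CD25hi Foxp3+ cells. The 1 lower gene was Anxa1, an anti-inflammatory annexin, with 147 against 632. Lgals3 read 411 against 814, just under 2-fold lower. Both S100a4 and S100a6 were higher in CD25lo Foxp3+ than in any other array.

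Among integrins and other adhesion genes 10 of 19 were higher and 1 lower, with a median of 1.12. Besides Itgae and Itgb8, the gut-homing chain Itgb7 read 9705 against 3471, Itgb1 6527 against 2345 and Epcam 292 against 56.7. The second Epcam probe set had a log2 difference of -0.17 and thus did not repeat it. The 1 lower gene was Crtam, an adhesion molecule of cytotoxic lymphocytes, with 32.9 against 324. Of 14 chemokine receptor genes 8 were higher and 2 lower, with a median of 1.04 (0.49 over all 19 with a probe set). Ccr2 and Cxcr3, receptors for inflammatory chemokines, read 1519 against 360 and 2911 against 1221, while Ccr8 read 194 against 53.2 and Cxcr5, the follicle-homing receptor, 992 against 335. Ccrl2, a decoy-like receptor, was 5.20-fold higher. Lower beside Cxcr6 was Ccr7, which guides naive cells into lymph nodes, with 1327 against 3329.

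**Figure D2:**
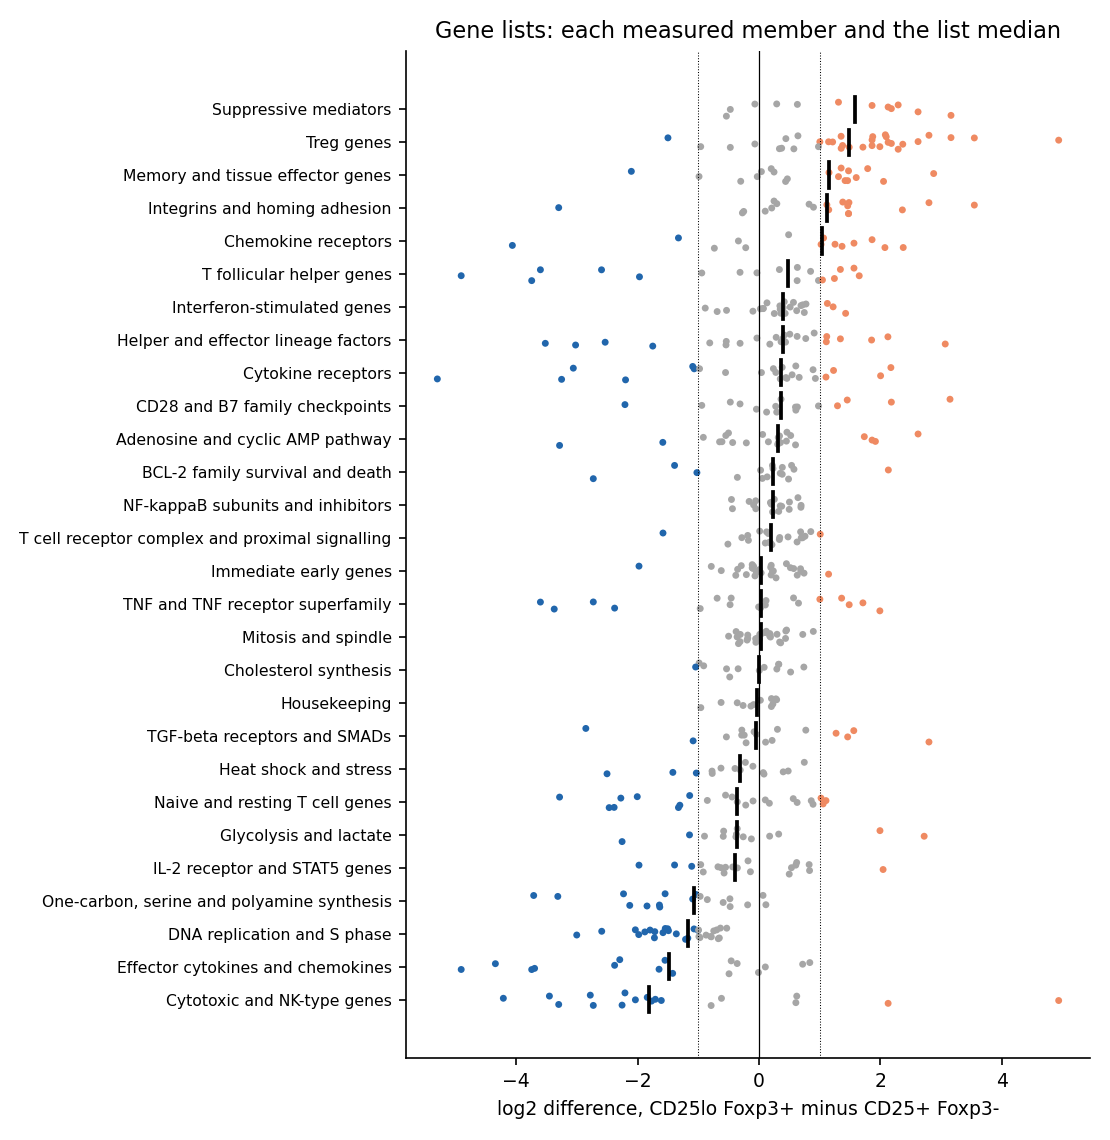
Log2 difference of CD25lo Foxp3+ minus CD25+ Foxp3- cells (x axis) for each measured member of the 28 gene lists (rows), with the list median as a black bar and dotted lines at 2-fold. Suppressive mediators and Treg genes have the highest medians, 1.59 and 1.49, and cytokines and cytotoxic genes the lowest, -1.49 and -1.81.

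Cytokine genes went the other way. Of 16 measured effector cytokines and chemokines 9 were lower in CD25lo Foxp3+ cells and none was higher, with a median of -1.49. Only 6 of the 16 reached the filter in all 4 arrays, so the CD25+ Foxp3- array helped to decide what was measured, and the median over the full 23 genes on the array was -0.46. IL-2, the growth factor that CD25 binds, had its gene Il2 at 14.1 against 286, and the other arrays, with 10.7 and 17.3, were as low as CD25lo Foxp3+ cells. Il4, of type 2 helper cells, read 10.8 against 145, the chemokine gene Ccl1 14.3 against 185, and Il17a was at the floor against 49.6. Ifng, the macrophage-activating cytokine, read 366 against 1146, and Lta (lymphotoxin alpha) 65.7 against 341. Il2, Il4 and Ccl1 were all close to the floor in CD25lo Foxp3+ cells, so their folds of 20.3, 13.4 and 12.97 are uncertain in size. Xcl1 and Lif were 2.92-fold and 2.68-fold lower. Tnf read 87.1 against 120 and Ltb 2982 against 2771, both under 2-fold. In a bulk sample, fewer cells making a transcript and less of it per cell cannot be told apart.

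**Figure D3:**
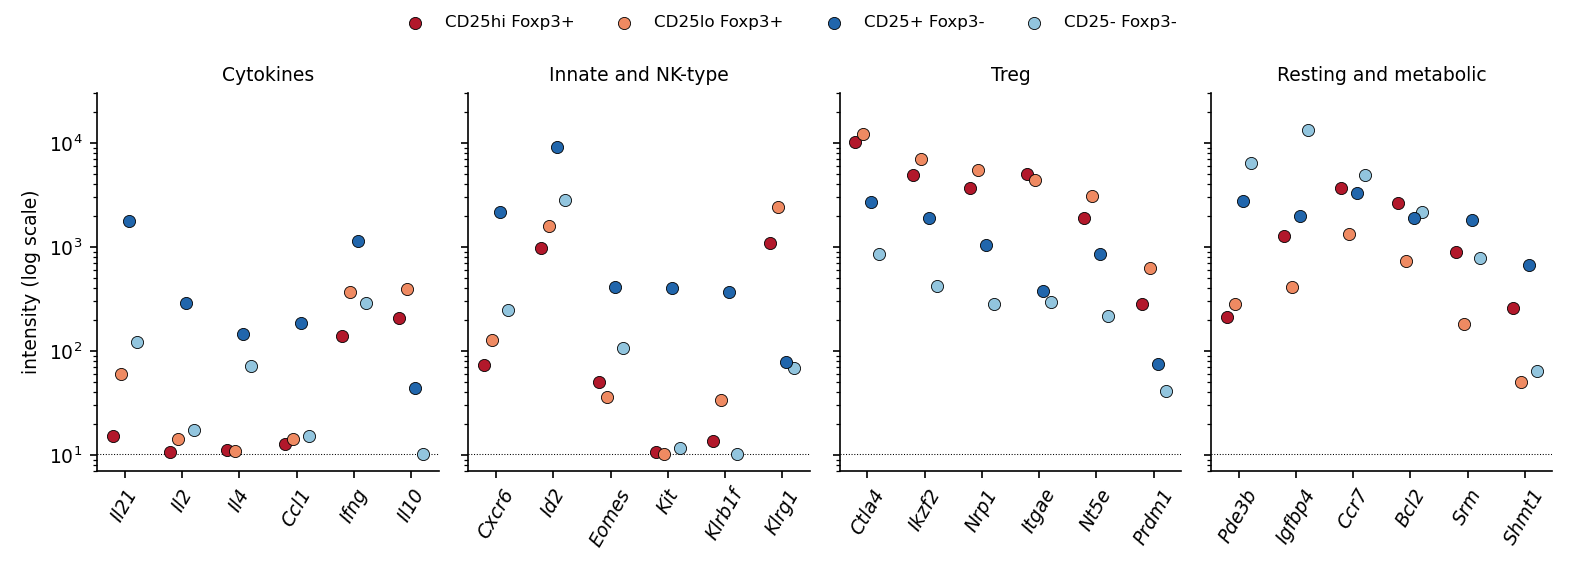
Intensity (y axis, log scale) of 24 genes in 4 panels, 1 point per array, coloured by population, with the floor of 10.1 as a dotted line. Il21, Il2, Cxcr6, Id2, Kit and Klrb1f are highest in CD25+ Foxp3- cells, Treg genes are high in both Foxp3+ arrays, and Ccr7, Bcl2, Srm and Shmt1 are lowest in CD25lo Foxp3+ cells.

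Markers of other cell types were lower in CD25lo Foxp3+ than in CD25+ Foxp3- cells by summed intensity for 6 of 7 lists of them, and their values are set here beside the gene groups above and below. Of 16 measured markers of CD8 T and NK cells 13 were lower and none higher, and their summed intensity was 1848 against 4575 (2039 for CD25hi Foxp3+ and 4728 for CD25- Foxp3-). Cd8a read 83.7 against 185, and Ncr1 and Klrk1 were at the floor in CD25lo Foxp3+ cells. Of 11 B cell markers 7 were lower and 1, Cd79b, was higher, and the MHC class II gene H2-Aa read 375 against 1877. The B cell sums were 12019 against 16630, with 10314.5 for CD25hi Foxp3+ and 17624 for CD25- Foxp3- cells. Markers of innate lymphoid cells had 6 of 10 lower and 1 higher, with Kit, Klrb1b, Zbtb16 and Ncr1 at the floor in CD25lo Foxp3+ cells and sums of 6889 against 16142. Without Id2 the sums were 5300.5 against 6939, with 4811 for CD25hi Foxp3+ and 7491 for CD25- Foxp3- cells. The gamma delta T and NKT list had 3 of 4 lower (86.4 against 328), and those of mast cells and basophils 2 of 4, Kit and Il4 (103 against 633). Red cell and platelet markers had 5 of 7 lower (543 against 1834), led by Slc4a1 and Car2. Myeloid markers had 4 of 13 lower, Fcer1g, Tyrobp, S100a9 and Adgre1, and none higher, with sums of 8753 against 6940. The median log2 difference of the measured myeloid markers was 0.19, and that of every myeloid marker on the array was 0. No measured marker of CD8 T and NK, B, gamma delta T and NKT or innate lymphoid cells was under the filter in the CD25+ Foxp3- array, whereas 4 of 16, 2 of 11, 3 of 4 and 5 of 10 were under it in the CD25lo Foxp3+ array, so the CD25+ Foxp3- array helped to decide which markers were counted. Over every marker on the array the median log2 difference was -1.63 for CD8 T and NK cells, -0.27 for B cells, -1.20 for innate lymphoid cells, -1.39 for gamma delta T and NKT cells, -0.02 for mast cells and basophils and -0.32 for red cells and platelets. Over the measured markers those medians were -1.73, -1.34, -2.02, -2.21, -1.95 and -1.44. Leaving out every listed marker of another cell type gave 495 genes higher and 834 lower. The summed CD4 T cell markers, given above, went the other way and were lower in CD25+ Foxp3- cells. The part of other cell types in the other results was not tested.

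Cytotoxic and NK-type receptor genes, many of them on those marker lists, had the lowest median, -1.81, with 12 of 18 lower and 2 higher. Without the listed markers of other cell types, the median of the remaining 7 was 0.61, with 3 lower and 2 higher. The C-type lectin receptor genes Klrb1b and Klrb1f were at the floor against 188 and at 33.8 against 370, and all their other probe sets were lower too. Gzmk read 60.6 against 416, Fasl, the ligand that kills through Fas, 77.5 against 514, and Klrd1 (CD94) 40.2 against 192. Higher were Klrg1 and Gzmb, given above, so the members of this list went both ways. Srgn, which packs granules, read 17527 against 11380, and Prf1 (perforin) 32.6 against 49.96, both under 2-fold.

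Transcription factors of helper and effector lineages split. Of 25 measured, 6 were higher and 4 lower. Prdm1 (Blimp-1), a repressor that marks effector Treg and plasma cells, read 627 against 74.7, and Nfil3 read 419 against 95.95. Ikzf3 (Aiolos) read 2269 against 626, and Tox, Rora and Batf were 2.54-fold, 2.17-fold and 2.16-fold higher. Lower were Eomes, a T-box factor of cytotoxic cells, with 35.8 against 411, and Id2, which innate lymphocytes require, with 1589 against 9203. The other Id2 probe sets had log2 differences of -2.36 and -0.59. Zbtb16 (PLZF), the factor of innate-like T cells, was at the floor against 82.2, and Tbx21 (T-bet), the type 1 helper factor, read 67.6 against 227. Gata3, Bcl6, Maf and Ahr differed by less than 2-fold.

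T follicular helper genes also split, with 5 of 18 higher and 5 lower. Cxcr5, Sh2d1a (the SAP adaptor), Tox, Cebpa and Tox2 were higher by 2.07-fold to 3.14-fold. Il21, Il4, Tnfsf8 (CD30 ligand), Pou2af1 and Sostdc1 were lower by 3.91-fold to 30.0-fold. Bcl6, the factor that defines follicular helper cells, read 465 against 476, and Pdcd1 (PD-1) 569 against 367. For Bcl6 the pair lay 1.02-fold apart.

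Of 19 measured genes of the TNF superfamily 10 were under 2-fold and 5 were higher, and all 5 encode receptors. Tnfrsf1b, the second TNF receptor, read 2289 against 575, Tnfrsf18 (GITR) 2672 against 815, Tnfrsf9 (4-1BB) 1558 against 556, Cd27 1970 against 766 and Tnfrsf4 (OX40) 3087 against 1539. The 4 lower genes all encode ligands, namely Tnfsf8, Tnfsf14 (LIGHT, 14.6 against 151), Fasl and Lta. Among 17 CD28 and B7 family genes Ctla4, Cd80, Cd200r1 and Vsir (VISTA) were higher and Cd160 was lower, with 101 against 464. Cd28 itself read 3602 against 3300.

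Cytokine receptor genes had 4 of 24 higher and 6 lower. Ifngr1, the ligand-binding chain for interferon gamma, read 1203 against 267 and Il10ra 281 against 70.0, and Ifnar1 and Il6ra were 2.34-fold and 2.15-fold higher. For Ifngr1 the CD25hi Foxp3+ array read 792 and the CD25- Foxp3- array 834, so CD25+ Foxp3- cells had the lowest reading. Besides Kit, the lower genes were Il17re (15.02 against 143), Il1r1 (40.1 against 334), Il17rb (57.3 against 263), Il18r1 (1152 against 2455) and Il18rap (119 against 248). The first 4 of these, Kit included, read between 10.1 and 76.1 in all 3 other arrays, so the CD25+ Foxp3- reading stood apart from the rest.

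Naive and resting T cell genes had 8 of 23 lower and 3 higher, with a median of -0.36. Pde3b, an enzyme that degrades cyclic AMP, read 281 against 2742, Igfbp4 412 against 1996 and Dapl1 159 against 639. Cnn3 and Tdrp were 5.53-fold and 5.23-fold lower, and Ccr7, Bach2 and Satb1 were 2.21-fold to 2.51-fold lower. Higher were Il6ra, Foxo1 and S1pr1, by 2.03-fold to 2.15-fold, and all 3 were lowest in CD25+ Foxp3- cells among the arrays. Klf2, which drives S1pr1, read 1267 against 697, and Lef1 read 491 against 526. Against CD25- Foxp3- cells both populations were low for this list, with medians of -1.26 and -1.21.

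Genes of the IL-2 receptor pathway differed little as a group, with 1 of 20 higher and 3 lower. The kinase gene Pim1 read 1711 against 414. Myc, a growth regulator induced by IL-2 and the T cell receptor, read 204 against 802, Bcl2, which blocks cell death, 732 against 1918, and Pim2 139 against 300. CD25hi Foxp3+ cells, the other Treg array, read 828 for Myc and 2653 for Bcl2, so CD25lo Foxp3+ cells were the lowest of the 4 for both. The 4 other Bcl2 probe sets had log2 differences from -1.26 to -0.63, against -1.39 for the brightest. Il2rb, the beta chain of the receptor, read 459 against 257, and Cish, a STAT5 target, 610 against 672. In the cell death list Pmaip1 (Noxa) read 341 against 77.8 and was the 1 higher gene of 16, and Fasl, Bcl2 and Bik were lower.

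In the cyclic AMP list 4 of 24 genes were higher and 2 lower. Pde2a, another phosphodiesterase, read 2620 against 786, and Crem, a cyclic AMP-responsive factor, 423 against 112, beside Entpd1 and Nt5e. Lower were Pde3b and Pde7a, with 386 against 1158 for the latter. Pde2a was thus higher while Pde3b and Pde7a were lower. Of 17 TGF-beta genes, Itgb8, Tgif1, Itgav and Tgfbr1 (2664 against 1104) were higher, and Tgfbr3 (betaglycan, 114 against 824) and Smad1 were lower. The other Smad1 probe set had a log2 difference of -0.75.

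Among proliferation genes, the replication list was lower in CD25lo Foxp3+ cells and the mitosis list was not. Of 29 measured genes of DNA replication and S phase 17 were lower in CD25lo Foxp3+ cells and none was higher, with a median of -1.17 and a highest log2 difference of -0.53. All 29 were highest in CD25+ Foxp3- cells among the 4 arrays. Of 29 genes of mitosis and the spindle none was 2-fold apart, with a median of 0.03 and a range from -0.50 to 0.90. Cdc6, which loads the replicative helicase, read 126 against 756, and the helicase subunit genes Mcm5, Mcm2 and Mcm3 read 2196 against 7619, 772 against 2548 and 1798 against 5909. For Cdc6 the CD25hi Foxp3+ array read 204 and the CD25- Foxp3- array 70.8, and for Mcm5 they read 3377 and 1514, so CD25lo Foxp3+ cells lay between them for both genes. Ung, which removes uracil from DNA, read 95.9 against 768, and the helicase cofactor genes Gins1 and Gins2 were 3.95-fold and 4.10-fold lower. By contrast Mki67 (the Ki-67 antigen) read 4178 against 3698, Top2a 1687 against 1671 and Ccna2 765 against 760. Dtl read 167 against 613 by its brightest probe set, but its 4 others had log2 differences from -0.90 to 0.45. Relative to CD25- Foxp3- cells, the replication median was 0.61 in CD25lo Foxp3+ and 2.00 in CD25+ Foxp3- cells, whereas the mitosis medians were 1.89 and 1.76.

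**Figure D4:**
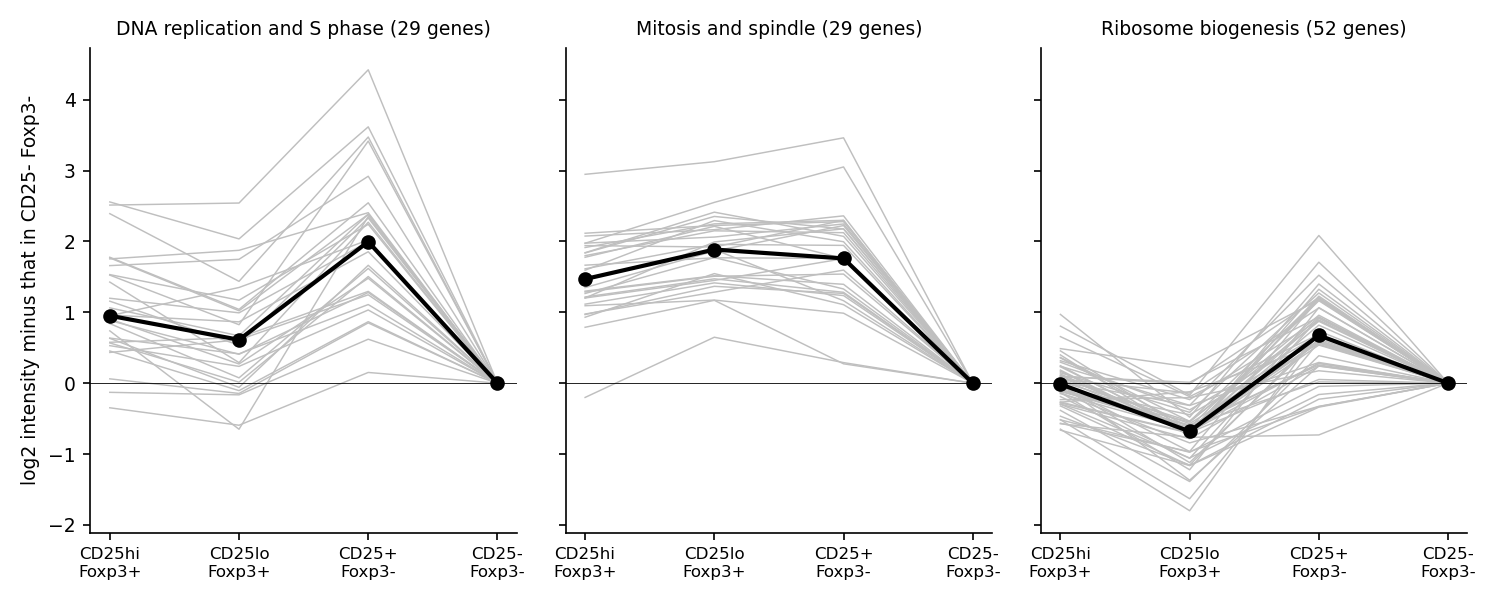
Log2 intensity relative to the CD25- Foxp3- array (y axis) in the 4 arrays (x axis) for each gene of 3 lists (grey lines) and the list median (black). The replication median is 2.00 in CD25+ Foxp3- and 0.61 in CD25lo Foxp3+ cells, the mitosis median 1.76 and 1.89, and the ribosome biogenesis median 0.67 and -0.68.

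E2F factors switch on replication genes at the start of S phase through sites in their promoters, so the letters of these promoters are shown beside the readings. The window ran from 250 bases before to 50 after the first RefSeq start of each gene in build GRCm38.p6, and 7895 measured genes had one. The letters TTTGGCGC or TTTCCCGC, on either strand, were present in 6 of 13 windows of the lower replication genes (46.2%), in 9 of 24 windows of all measured replication genes (37.5%), in 3.37% of all windows and in none of 25 windows of mitosis genes. They were in 1.25% of 400 windows of higher genes and 4.43% of 700 windows of lower genes. None of the matches in those 13 windows overlapped another motif searched. A match is a description of the letters only. The 250 bases before the start are printed for Cdc6 (plus strand, chr11:98907901-98908150), Mcm5 (plus strand, chr8:75109259-75109508) and Mcm6 (minus strand, chr1:128359706-128359955), the lower replication genes with an upstream match other than Dtl, with the match in capitals.
Cdc6: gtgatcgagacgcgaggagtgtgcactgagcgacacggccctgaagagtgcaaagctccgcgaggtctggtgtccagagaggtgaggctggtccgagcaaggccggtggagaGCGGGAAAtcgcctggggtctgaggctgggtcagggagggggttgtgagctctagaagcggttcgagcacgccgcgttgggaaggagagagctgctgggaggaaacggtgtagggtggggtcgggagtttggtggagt
Mcm5: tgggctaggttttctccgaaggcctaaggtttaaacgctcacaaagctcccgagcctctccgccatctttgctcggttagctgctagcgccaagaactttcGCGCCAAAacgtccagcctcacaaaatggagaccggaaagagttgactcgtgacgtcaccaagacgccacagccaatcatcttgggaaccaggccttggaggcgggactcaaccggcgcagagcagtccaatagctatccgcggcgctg
Mcm6: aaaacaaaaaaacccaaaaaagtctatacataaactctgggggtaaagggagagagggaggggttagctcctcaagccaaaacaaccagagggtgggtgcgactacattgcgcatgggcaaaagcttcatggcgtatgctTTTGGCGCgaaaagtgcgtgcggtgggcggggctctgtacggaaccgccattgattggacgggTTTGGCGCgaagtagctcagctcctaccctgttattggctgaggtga
The match began 138 bases before the start in Cdc6 and 149 in Mcm5, and Mcm6 held matches at 110 and 47. Mcm6 read 2708 against 5429, 2.01-fold apart. Mcm3, given above, also held 2 matches in its window, none of them wholly within the 250 bases before the start. Other motifs were searched in the same windows on both strands. The forkhead letters GTAAACA stood in 3.0% of windows of higher genes, 1.71% of lower genes and 2.57% of all. The AP-1 letters TGANTCA stood in 7.0%, 6.14% and 4.56%, the STAT letters TTCNNNGAA in 9.25%, 8.14% and 6.81%, and the GATA letters AGATAA in 7.25%, 5.43% and 6.05%.

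Of 18 genes of one-carbon, serine and polyamine synthesis 10 were lower in CD25lo Foxp3+ cells and none was higher, with a median of -1.06. Srm, which makes spermidine, read 182 against 1808, with 893 for CD25hi Foxp3+ and 781 for CD25- Foxp3-, so one array was low and the other high. Odc1, the first enzyme of polyamine synthesis, read 1749 against 5109. Shmt1 and Shmt2, which feed serine into the folate cycle, read 50.8 against 665 and 353 against 1545, and Mthfd1 read 358 against 1683. The other Shmt1 probe sets had log2 differences of -3.36, -2.47 and -1.65, and those of Shmt2 had -1.95 and -0.68. Gart, of purine synthesis, read 831 against 2580 and Asns (asparagine synthetase) 194 against 696. CD25lo Foxp3+ cells had the lowest of the 4 readings for 12 of the 18 genes, and CD25+ Foxp3- cells the highest for 14.

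A list of ribosome biogenesis genes was written after the brightest differences had been seen, when several of its members stood among them, and its count is a description. Of 52 measured genes 34 were at least 2-fold lower in CD25lo Foxp3+ cells, none was higher and all 52 were below 0, with a median of -1.24. All 52 were above background in all 4 arrays. Nolc1, a chaperone of nucleolar particles, read 924 against 4049, and Lyar 598 against 2521. Dkc1 and Nhp2, of the particles that modify ribosomal RNA, read 724 against 2808 and 642 against 2354, and Rrp12 read 104 against 606. The abundant nucleolar genes Npm1 and Ncl read 11826 against 22386 and 10320 against 19932, just under 2-fold. CD25lo Foxp3+ cells were the lowest of the 4 arrays for 48 of the 52 and CD25+ Foxp3- cells the highest for 45. Between CD25hi Foxp3+ and CD25- Foxp3- cells no gene of this list was 2-fold apart. In a list of 19 cytosolic tRNA synthetases, also written afterwards, 3 were lower and 17 were below 0, with a median of -0.80.

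Sugar and stress genes differed in single members. Of 14 glycolysis genes Aldoc (174 against 26.3) and the glucose transporter gene Slc2a3 (2964 against 744) were higher, and Hk2 (hexokinase 2, 46.8 against 224) and the lactate transporter gene Slc16a1 were lower. Of 15 heat shock genes the mitochondrial chaperonin pair Hspe1 and Hspd1 was lower, with 1415 against 8025 and 3541 against 9467, as was Hsph1.

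Other lists hardly differed. None of 19 NF-kappaB genes and none of 12 housekeeping genes was 2-fold apart, and Actb read 20002 against 17354. Of 22 genes of the T cell receptor complex and its signalling, Themis was lower with 235 against 703 and Trat1 was 2.01-fold higher. The other Trat1 probe set had a log2 difference of 0.26 and did not repeat the 2-fold call. Of 29 immediate early genes only Dusp4 (1840 against 830.4) was higher and only Myc lower, while Fos, Egr2 and Nr4a1 read 11346 against 7628, 1279 against 1370 and 942 against 657. Of 25 interferon-stimulated genes Isg20, Iigp1 and Gbp3 were higher, by 2.19-fold to 2.69-fold, and of 13 cholesterol genes only Lss was lower.

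The other arrays place these differences. CD25hi Foxp3+ over CD25- Foxp3- cells is a second contrast of Foxp3, with no array in common with the first, though from the same mice, and it differs in CD25 as well. In it 7.09% of measured genes were 2-fold higher and 3.74% lower. Leaving out the sort genes, 185 of the 496 genes higher in CD25lo Foxp3+ cells were also higher there, which is 37.3% of these and 27.2% of the 680 higher in the other contrast. Of the 870 lower genes 131 were also lower there, which is 15.1% of these and 36.4% of the 360. Opposite ways went 6 of the higher genes (1.21%) and 81 of the lower ones (9.31%). In 314 of the 870 lower genes (36.1%) the CD25+ Foxp3- array stood at least 2-fold above each of the other 3, and in 84 the CD25lo Foxp3+ array stood as far below them. In 100 of the 496 higher genes (20.2%) CD25lo Foxp3+ cells stood alone above, and in 50 CD25+ Foxp3- cells stood alone below. Among genes measured in this way, lower genes were thus more often a high reading of CD25+ Foxp3- cells alone than a low reading of CD25lo Foxp3+ cells alone. The filter took the highest of the 4 readings, so a gene high in CD25+ Foxp3- cells alone passed through that array, and the floor limited low readings. Of the 870 lower genes, 641 reached the filter in both arrays of the pair. At the floor were 14 measured genes in CD25+ Foxp3- and 57 in CD25lo Foxp3+ cells.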

How the data were processed

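The deposited table holds 1 intensity per probe set and array on a linear scale, per the labels from Affymetrix mouse whole-genome arrays after 2 cycles of in vitro amplification, which favours the 3′ ends of transcripts. The authors' probe summary, background correction and normalization are not stated in the labels or file headers. Column medians lay within 10%, so the deposited scale was kept.

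Of 45101 probe sets, 64 controls were left out, 34945 had 1 gene in the platform annotation, 932 several and 9160 none. By Entrez identifier, 34741 matched RefSeq (GRCm38.p6), and no symbol changed. Values under the 40th percentile (10.1) were set to it, the floor. Probe sets whose highest value over the 4 arrays reached the 60th percentile (32.5), called above background here, were kept, and each gene was read from its kept probe set with the highest mean log2. A fold against the floor is a lower bound.

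Groups came from sample titles. With 1 array a side no test was made, and 2-fold was the size rule. The members, the 28 gene lists and the 8 marker lists were chosen with earlier results of these data known. Named were the sort genes, the 15 highest and 15 lowest genes read above the floor in both arrays, the 5 brightest at the floor on each side and up to 6 members past 2-fold of each list. Clone symbols (320 of the measured genes) were not named. Other genes, those under 2-fold among them, were chosen after their values were seen. Alternatives for floor, filter, probe set, scaling and marker genes were run (Python 3.11.15, numpy 2.4.6, pandas 2.3.3).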

Additional observations from a re-analysis of the deposited data

Results flagged for a closer look

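Of the 153 named genes, 8 were 2-fold or more apart in opposite directions in the contrasts of Foxp3 without an array in common. These contrasts were CD25lo Foxp3+ minus CD25+ Foxp3- cells and CD25hi Foxp3+ minus CD25- Foxp3- cells. Among all measured genes but the sort genes, 6 of 496 higher genes (1.21%) and 81 of 870 lower genes (9.31%) went opposite ways. Over all 9620 such genes, called or not, 3.74% were lower and 7.07% higher in the second contrast. Naming took up to 6 members of a list, so the share of any list among the 8 follows in part from that rule. With 1 array for each population, the difference between the contrasts was not tested. The log2 differences, in that order, were -3.71 and 2.02 for Shmt1, -2.38 and 1.48 for Lta, and -2.26 and 1.52 for Hk2. Replication genes made up the other 5, with -2.59 and 1.53 for Cdc6, -2.04 and 2.39 for Gins2, -1.98 and 1.43 for Gins1, -1.88 and 2.51 for Dtl, and -1.79 and 1.16 for Mcm5. For Dtl the other probe sets did not repeat the first value.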

How the results depend on the processing

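Under the 9 alternatives the count of genes 2-fold higher in CD25lo Foxp3+ cells ranged from 451 to 535 and that of lower genes from 767 to 941, all within 1.5 times of 497 and 870. With the floor at the 50th percentile, 17 of 153 named log2 differences moved by more than the spread between probe sets, and with the median of the probe sets 16 did. No named gene past 2-fold changed sign. Of 152 such genes 7 fell under 2-fold in at least 1 alternative, namely Adgre1, Trat1, Dtl, Smad1, Lss, Bik and Hsph1. The median of the cytotoxic and NK-type list reversed to 0.61 without markers of other cell types, since most of its low members are such markers. Without the filter, the medians of 8 lists moved by more than the spread between probe sets, namely cytokines (-0.46), suppressive mediators (0.97), chemokine receptors (0.49) and the markers of B cells (-0.27), red cells (-0.32), gamma delta T and NKT cells (-1.39), innate lymphoid cells (-1.20) and mast cells and basophils (-0.02). The mast cell and basophil median was -3.75 with the filter on the compared arrays or on the mean. No paired analysis was possible because each group has 1 array, and no array could be left out. Low signal limits all genes near the floor.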

Other observations

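Among genes reading at least 500 in both arrays, chosen after their values were seen, some with no place in the lists stood out. Niban1 (a stress-response protein) read 3757 in CD25lo Foxp3+ and 763 in CD25+ Foxp3- cells, Gdpd3 (a phosphodiesterase of lipids) 4999 against 1149, and Ephx1 (epoxide hydrolase) 4014 against 1069. Lower were Ppa1 (inorganic pyrophosphatase) with 556 against 2407 and Atad3a (a mitochondrial membrane ATPase) with 611 against 2603. For Gdpd3 and Ephx1 the CD25- Foxp3- array, at 2564 and 1844, lay above CD25+ Foxp3- cells.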
